A study of Homo sapiens with 6 samples.

Results

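The genes described here are the components and feedback genes of the NF-kB pathway in LS174T cells, a human colon adenocarcinoma line that makes mucin. The list names 43 genes, taken by gene symbol with earlier results of these data known, and with chemokine genes left out by design. Of these, 39 had at least 1 probe set assigned to that gene alone (83 probe sets), among 19775 genes with such a probe set on the array. The brightest probe set over all arrays stood for each gene. TNF lay below the filter on dim probe sets, so that 38 members were tested among 14308 genes. BCL3 had only probe sets that also name another gene, and BIRC3, TRAF2 and RIPK1 had no probe set in the annotation used, so no value is given for these 4.

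Cultures of LS174T received either CompE at 250 nM or the vehicle DMSO for 48 h, with 3 cultures in each group and 1 Affymetrix Human U133 Plus 2.0 array for each culture. CompE is in common use as the name of Compound E, which inhibits gamma-secretase and so keeps Notch receptors from being cleaved. The labels carry the short name alone. All cells came from 1 line, grown in EMEM with serum and with no added cytokine that the labels mention, so the values describe the pathway's transcripts in that setting. HES1, a gene that Notch induces, fell 2.81-fold with CompE (adjusted p = 0.00198), and ATOH1, a secretory lineage factor that HES1 represses, rose 6.13-fold (adjusted p = 0.000892).

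NF-kB is a family of dimeric transcription factors built from the Rel proteins. In resting cells IkB proteins hold the dimers in the cytoplasm. Receptors for TNF, interleukin-1 and microbial products act through adaptors, ubiquitin ligases and the TAK1 complex on the IKK complex, which marks IkB for destruction. The freed dimers enter the nucleus and switch on inflammatory and survival genes, among them the genes of their own inhibitors, which close a negative feedback loop. In gut epithelium the pathway is known for its part in defence against microbes and in inflammation. Much of its control lies in protein modification and location, which transcript arrays do not measure.

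Transcripts of 2 members fell with CompE, those of the TNF receptor gene TNFRSF1A (1.34-fold lower) and of the kinase-like adaptor gene IRAK2 (1.4-fold lower). The other 36 members tested did not pass, and these include the Rel subunits RELA and NFKB1 and the feedback genes NFKBIA and TNFAIP3. In the limma fit over all genes, 2 of 38 members (5.26%) passed at an adjusted p under 0.05. That share is close to the 7.14% of all 14308 genes that passed, so it does not set the list apart. In the lower direction the background was 2.57% and in the higher direction 4.56%, beside 2 members lower and 0 higher. At an unadjusted p under 0.05 there were 7 members lower and 1 higher, where 24.5% of all genes lay under that level. When arrays were instead centred on their hybridisation controls, 7 members (18.4%) and 1552 of all genes (10.8%) fell, while 0 members and 340 genes rose. The median of all genes moved from 0.02 to -0.12 on the log2 scale with that centring, and 10 members that did not pass in either scaling (NFKB1, RELA, TNIP2, CYLD, BIRC2, TRAF6, TAB2, MYD88, IL32 and SOD2) went from above to below 0. In the main scaling 653 genes rose and 368 fell.

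The groups did not overlap on the 3 and 3 arrays for 13 of 38 members (34.2%), beside 32.2% of all genes. Of these, 9 were lower and 4 higher with CompE, where the background was 13.0% of genes lower and 19.1% higher. All differences given below are CompE minus DMSO on the log2 scale. Their median was -0.05 over the 38 members and 0.02 over all genes, and 24 of 38 members (63.2%) had an estimate below 0, beside 45.1% of all genes. For 31 of 38 members the 95% interval of the difference lay within 1.5-fold in either direction, which held for 75.1% of all genes. These intervals are not adjusted for the number of genes. In bulk cultures, fewer cells that express a gene and less RNA in each cell cannot be told apart.

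**Figure D1:**
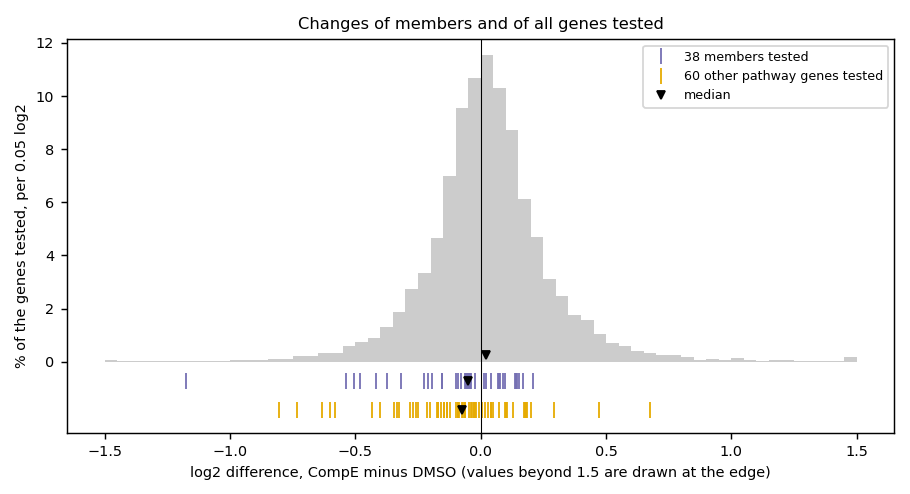
Histogram of the log2 difference (CompE minus DMSO) of the 14308 genes tested, as percent of genes per bin of 0.05. Marks under the axis stand for the 38 members and the 60 other pathway genes tested, and triangles for the medians (-0.05 for members, -0.07 for other pathway genes, 0.02 for all genes). Most members lie in the bulk of the histogram.

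Within groups, arrays correlated at r = 0.987 to 0.988 across probe sets, and between groups at 0.981 to 0.985. Median intensities lay between 36.9 and 38.6. All 14 markers of colon epithelium were above the level of the array's Bacillus controls, which human RNA does not contain (an intensity of 45.7). Of these 14, 3 passed. MUC2, the main gel-forming mucin of goblet cells, rose 2.07-fold (adjusted p = 0.00164), and CDX2, an intestinal transcription factor, rose 1.35-fold (adjusted p = 0.00873). CDH17, an intestinal cadherin, fell 1.24-fold (adjusted p = 0.0229). The summed intensity of the 14 was 47456 to 50368 in DMSO and 47918 to 50034 in CompE. Of the leukocyte markers, which matter here because leukocytes are rich in NF-kB transcripts, 3 of 15 with a probe set lay above that level in both groups. Their summed intensity was 573 to 621 in DMSO and 562 to 629 in CompE, and the pan-leukocyte gene PTPRC lay below the filter. CORO1A, a leukocyte-rich actin regulator, was the leukocyte marker that passed, higher with CompE by 0.50 on the log2 scale. Fibroblast and endothelial markers above the level numbered 4 of 10 and 1 of 10, with none of either list past the limma threshold (0 and 1 at an unadjusted p under 0.05). The ratio of 3' to 5' signal of ACTB was 1.42 to 1.46 in DMSO and 1.49 to 1.53 in CompE. For GAPDH this ratio was 0.958 to 0.979 in DMSO and 0.918 to 0.970 in CompE, with overlap. The mean log2 signal of the hybridisation controls was 11.61 to 11.63 in DMSO and 11.69 to 11.83 in CompE. The part of the epithelial and ACTB shifts in the members' values was not tested. For the control shift, only the centring on hybridisation controls given above was run.

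Many members are themselves known targets of NF-kB, so their promoters were searched for its site. RefSeq promoter windows (GRCh38.p14, 250 bases before to 50 after an annotated start) were held for 38 of the 43 members, in 63 windows. The kappaB decamer, the consensus site of Rel dimers, was searched on both strands. It occurred in 20 of 63 windows of members (31.7%), which belonged to 16 genes, and in 5.91% of all 35116 windows. The core that the Notch effector RBPJ binds, TGGGAA, was found in 20.6% of member windows and 24.0% of all windows, also on both strands. Both motifs can share bases, as in the promoters of NFKB1, NFKB2, NFKBIZ and TNIP1. Of the 16 genes with a kappaB decamer 14 were tested, and 0 of those passed in limma, beside 7.14% of all genes. With so few genes that count does not set them apart. Among them NFKB2, NFKBIZ and TNIP1 were lower at an unadjusted limma p under 0.05, where 24.5% of all genes lay under that level. Of the 12 genes with the RBPJ core 11 were tested and 1 passed.

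Shown are 5 windows, those of the 2 members that fell and of 3 classical feedback or subunit genes that did not pass. Capitals mark the kappaB decamer and TGGGAA. The window of TNFRSF1A (chr12:6342027-6342326, minus strand) held no kappaB decamer and 1 RBPJ core, and that of IRAK2 (chr3:10164669-10164968, plus strand) held neither motif. The NFKBIA window (chr14:35404700-35404999, minus strand) held 1 kappaB decamer and the TNFAIP3 window (chr6:137867009-137867308, plus strand) held 2. NFKB1 has 2 windows, and the window shown (chr4:102501109-102501408, plus strand) was picked for its kappaB decamer. It held 1 kappaB decamer, whose first bases overlap an RBPJ core, starting 49 bases before the transcript start.
TNFRSF1A: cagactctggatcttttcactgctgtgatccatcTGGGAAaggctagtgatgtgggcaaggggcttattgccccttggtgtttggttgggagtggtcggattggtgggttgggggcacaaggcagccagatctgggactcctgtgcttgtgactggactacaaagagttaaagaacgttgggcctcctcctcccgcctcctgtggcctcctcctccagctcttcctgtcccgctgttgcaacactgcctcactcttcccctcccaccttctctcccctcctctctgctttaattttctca
IRAK2: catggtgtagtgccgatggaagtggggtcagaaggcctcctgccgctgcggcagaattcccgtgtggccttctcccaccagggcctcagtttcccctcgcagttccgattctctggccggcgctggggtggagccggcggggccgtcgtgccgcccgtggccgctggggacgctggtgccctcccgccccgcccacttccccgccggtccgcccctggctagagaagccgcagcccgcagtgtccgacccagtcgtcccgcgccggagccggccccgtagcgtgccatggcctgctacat
NFKBIA: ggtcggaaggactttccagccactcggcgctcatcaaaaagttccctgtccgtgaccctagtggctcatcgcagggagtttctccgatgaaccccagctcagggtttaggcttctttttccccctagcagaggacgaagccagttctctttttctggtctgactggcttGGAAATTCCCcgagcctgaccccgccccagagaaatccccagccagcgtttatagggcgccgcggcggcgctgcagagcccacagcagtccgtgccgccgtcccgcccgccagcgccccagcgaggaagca
TNFAIP3: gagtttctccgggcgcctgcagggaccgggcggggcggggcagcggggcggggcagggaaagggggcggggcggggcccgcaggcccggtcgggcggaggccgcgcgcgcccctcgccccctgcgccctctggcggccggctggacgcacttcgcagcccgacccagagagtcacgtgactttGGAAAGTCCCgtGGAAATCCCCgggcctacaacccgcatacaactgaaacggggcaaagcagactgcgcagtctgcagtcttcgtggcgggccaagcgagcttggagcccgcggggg
NFKB1: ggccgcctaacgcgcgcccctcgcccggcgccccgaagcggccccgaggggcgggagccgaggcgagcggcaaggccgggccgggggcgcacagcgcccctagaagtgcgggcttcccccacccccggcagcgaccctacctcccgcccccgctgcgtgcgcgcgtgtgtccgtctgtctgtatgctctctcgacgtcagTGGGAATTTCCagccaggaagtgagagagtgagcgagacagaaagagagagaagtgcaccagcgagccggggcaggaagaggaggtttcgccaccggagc
These letters describe the windows alone, since no binding was measured in these samples.

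**Figure D2:**
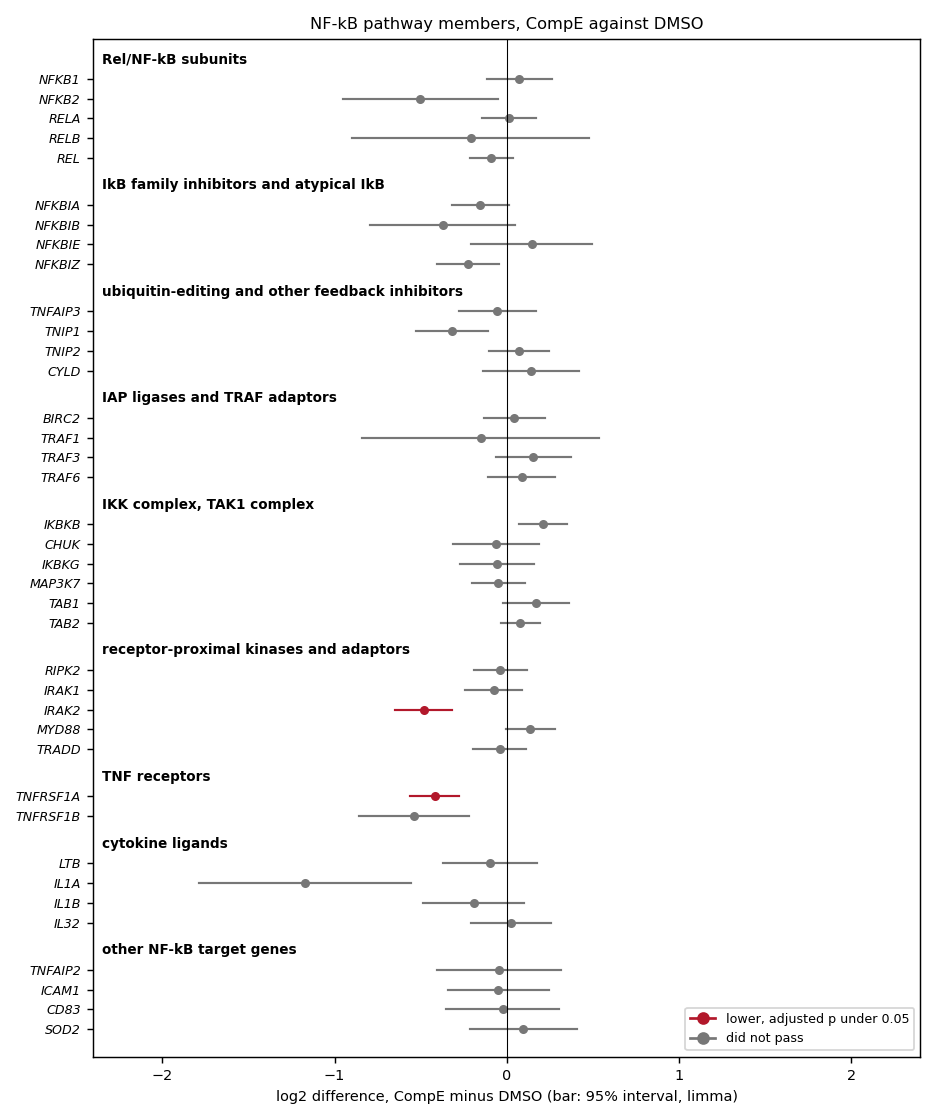
Log2 difference (CompE minus DMSO) of the 38 members tested, by role, with 95% intervals from limma. TNFRSF1A (-0.42) and IRAK2 (-0.48) are the members that passed, and most other intervals include 0.

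Receptors for TNF stand at the head of the pathway. TNFRSF1A encodes the widely expressed TNF receptor that signals through a death domain. Its intensity was 342, 345 and 350.2 on the DMSO arrays and 264, 269.9 and 243 on the CompE arrays. Every CompE array lay below every DMSO array, and the DMSO arrays were close to each other. The mean went from 346 ± 4.08 to 259 ± 14.2 (SD, n = 3 each), a log2 difference of -0.42 ± 0.06 SE (95% interval -0.56 to -0.28, adjusted p = 0.0161). With 1 array left out the difference stayed at -0.45 to -0.37, but the adjusted p was above 0.05 without any 1 of the DMSO arrays and without CompE replicate 1 (highest 0.0699).

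TNFRSF1B encodes the second TNF receptor, which lacks a death domain and is best known from immune cells. It was at 187, 155 and 161 in DMSO and 116, 132.9 and 99.0 in CompE. These groups did not overlap either, yet the spread was wider, and the log2 difference of -0.54 ± 0.13 SE did not pass (adjusted p = 0.0676). Under 5 of the 12 alternatives that kept all arrays it did pass, with a lowest adjusted p of 0.00435.

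Among adaptors and kinases close to the receptors 1 of 5 fell and 4 did not pass, where 2.57% of all genes fell. With 5 genes that count does not set the group apart. IRAK2, a partner of IRAK1 in signalling from interleukin-1 and Toll-like receptors, was at 310.1, 270.3 and 283 in DMSO and 209, 208 and 199 in CompE. The CompE arrays lay close together, all below the DMSO arrays. The mean went from 288 ± 20.3 to 206 ± 5.68 (SD, n = 3 each), with a log2 difference of -0.48 ± 0.07 SE (95% interval -0.65 to -0.32, adjusted p = 0.0163). A dimmer probe set of the gene, near the Bacillus level, gave -0.17, and the mean of both did not pass (-0.33, adjusted p = 0.0933). Its remaining probe set lay below the filter. Leaving out 1 array gave -0.53 to -0.43, with the adjusted p above 0.05 without DMSO replicate 3 and without any 1 of the CompE arrays (highest 0.0679).

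MYD88, the adaptor that joins those receptors to IRAK kinases, had 1088 ± 53.3 in DMSO and 1195 ± 37.3 in CompE (log2 difference 0.14, adjusted p = 0.224). Its groups did not overlap, with CompE the higher. IRAK1, the kinase that IRAK2 pairs with, differed by -0.08 (adjusted p = 0.546). Its dimmer probe set, above the Bacillus level, gave -0.20, and the mean of both was -0.14 and did not pass (limma adjusted p = 0.184). For RIPK2, which carries signals from NOD receptors, the difference was -0.04, and for TRADD, the adaptor of TNFRSF1A, it was -0.04 (0.03 for the mean of its probe sets). Both had intervals within 1.5-fold (-0.19 to 0.12 and -0.19 to 0.11).

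**Figure D3:**
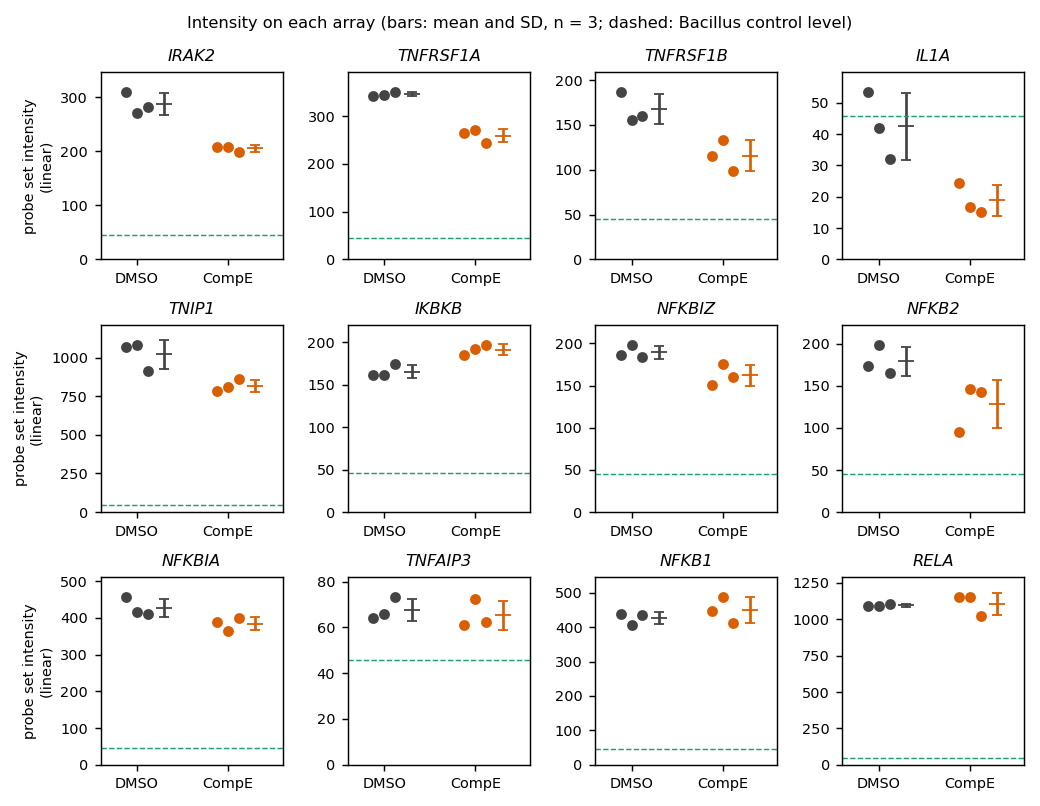
Probe set intensity on each array for 12 members, on linear axes from 0, with mean and SD (n = 3) beside the points and the Bacillus control level (45.7) as a dashed line. The groups separate for TNFRSF1A, IRAK2, TNFRSF1B, TNIP1, IKBKB, NFKBIZ, NFKB2, NFKBIA and IL1A, and overlap for RELA, NFKB1 and TNFAIP3. The IL1A values lie around or below the dashed line.

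None of the 6 genes of the IKK and TAK1 complexes passed in limma (1 at an unadjusted p under 0.05). IKBKB, the IKK subunit that phosphorylates IkB in the canonical route, was at 162, 161 and 175 in DMSO and 185, 192 and 197 in CompE. All CompE arrays were the higher ones, with a log2 difference of 0.21 ± 0.06 SE (adjusted p = 0.0881). Its dimmer probe sets went the other way (-0.12 and -0.06), and the mean over probe sets was 0.01. CHUK, the IKK subunit that also serves the non-canonical route, differed by -0.06, and the scaffold gene IKBKG by -0.06. IKBKG has a near-identical pseudogene, so its signal may be shared. MAP3K7, which encodes TAK1, differed by -0.05 (95% interval -0.20 to 0.10). Its partners TAB1 (0.17) and TAB2 (0.08) were higher on every CompE array than on any DMSO array, with adjusted p of 0.245 and 0.348. All 6 genes had intervals within 1.5-fold.

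Rel subunits gave 0 of 5 past the limma threshold (1 at an unadjusted p under 0.05). RELA, the transactivating p65 subunit, was at 1089, 1093 and 1103 in DMSO and 1150.4, 1151 and 1021 in CompE. The CompE arrays lay on both sides of the DMSO arrays, and the log2 difference was 0.01 (95% interval -0.14 to 0.17). A further probe set of RELA gave 0.02. NFKB1, the gene of p105 and its product p50, was at 437, 407 and 435 on the DMSO arrays and 448, 487 and 412 on the CompE arrays, again with overlap, and differed by 0.07 (-0.12 to 0.26).

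NFKB2 encodes p100, the precursor of the non-canonical subunit p52. Its intensity was 173, 199 and 166 in DMSO and 95.7, 146 and 143 in CompE. The groups did not overlap, but CompE replicate 1 was far below the other CompE arrays, and the log2 difference of -0.50 ± 0.18 SE did not pass (adjusted p = 0.165). Without that array NFKB2 was still lower, by -0.30 ± 0.10 SE (limma adjusted p = 0.199). The mean over its probe sets gave -0.35 (limma adjusted p = 0.168). REL, the gene of c-Rel, differed by -0.09 (adjusted p = 0.33). Its other probe sets above the Bacillus level gave 0.10, -0.19 and -0.33, and the mean over probe sets was -0.13. RELB, the partner of p52, lay below the Bacillus level in both groups, with 32.3 ± 8.42 in DMSO and 28.3 ± 9.34 in CompE, so no fold is given.

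The inhibitors that NF-kB induces against itself are often read as a gauge of its activity. NFKBIA encodes IkB-alpha, the fastest of these feedback inhibitors. It was at 456, 417 and 409.7 in DMSO and 388, 364 and 399.8 in CompE. All CompE arrays were below the DMSO arrays, by a small margin, and the log2 difference was -0.15 ± 0.07 SE (95% interval -0.32 to 0.01, adjusted p = 0.226). A dim probe set of the gene, below the Bacillus level, gave 0.04. The mean over both probe sets was -0.06 (limma adjusted p = 0.72).

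NFKBIZ, the gene of the nuclear IkB-zeta that steers secondary response genes, was at 186, 199 and 184 on the DMSO arrays and 151, 176 and 161 on the CompE arrays. These groups were also apart, with CompE the lower (log2 difference -0.22 ± 0.07 SE, adjusted p = 0.132), and its dimmer probe set gave -0.42. The mean of both gave -0.32 and passed (adjusted p = 0.049). NFKBIB, which encodes IkB-beta, differed by -0.37, with overlapping groups and a wide spread (278 ± 29.2 and 217 ± 49.2, adjusted p = 0.247). Its other probe sets gave -0.24 and, below the Bacillus level, -0.56. The mean over its probe sets was -0.39 and did not pass (limma adjusted p = 0.174). NFKBIE, the gene of IkB-epsilon, differed by 0.14 in the opposite sense (adjusted p = 0.591). Thus 0 of 4 inhibitor genes of this family tested passed in limma, with 1 at an unadjusted p under 0.05.

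TNFAIP3 encodes A20, a ubiquitin-editing enzyme that ends signalling from TNF receptors. It was at 64.1, 66.0 and 73.2 in DMSO and 61.0, 72.6 and 62.4 in CompE. These values overlap and lie not far above the Bacillus level, and the log2 difference was -0.05 (95% interval -0.28 to 0.17). Its other probe set, slightly dimmer, gave -0.35. The mean of both was -0.20 ± 0.07 SE and did not pass (limma adjusted p = 0.167).

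TNIP1, whose product binds A20, was at 1070.1, 1084 and 913 in DMSO and 782, 809 and 862 in CompE. The CompE arrays were all lower, and the log2 difference of -0.32 ± 0.09 SE did not pass (adjusted p = 0.0859). A dim probe set below the Bacillus level gave 0.32, so that the mean over probe sets came to 0.00. TNIP2, a relative of TNIP1, differed by 0.07 and CYLD, a deubiquitinase that restrains the pathway, by 0.14. For each the mean over its probe sets was 0.00. Both had overlapping groups and intervals within 1.5-fold.

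Among the ligases and TRAF adaptors 0 of 4 passed in limma, and 0 lay under an unadjusted p of 0.05. BIRC2, the gene of the ligase cIAP1, was at 1102 ± 30.0 in DMSO and 1138 ± 87.8 in CompE (log2 difference 0.04, 95% interval -0.13 to 0.22). TRAF3, which restrains the non-canonical route, differed by 0.15, but a dimmer probe set above the Bacillus level gave -0.27 and the mean of both -0.06. TRAF6, the ligase downstream of IRAK kinases, differed by 0.09. TRAF1, itself a known NF-kB target, had 42.7, 80.2 and 40.2 in DMSO and 40.8, 47.3 and 51.9 in CompE, values on either side of the Bacillus level, with DMSO replicate 2 apart from the rest.

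Ligand genes were partly too dim to follow. IL1A, the gene of interleukin-1 alpha, had 53.4, 41.9 and 32.1 in DMSO and 24.5, 16.9 and 15.2 in CompE. The groups did not overlap, with CompE the lower. In both groups the mean log2 value was under the Bacillus level, so that no fold is given, and the adjusted p of 0.0501 fell just short of the threshold. Over 16 alternatives it lay between 0.0133 and 0.137 and was under 0.05 in 7. TNF, the founding ligand of the family, stayed under the filter, with 18.2, 11.4 and 16.5 in DMSO and 11.6, 15.4 and 21.0 in CompE.

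IL1B, the gene of interleukin-1 beta, overlapped between the groups, with 127 ± 6.52 in DMSO and 111 ± 17.2 in CompE (log2 difference -0.19, adjusted p = 0.378). LTB, whose product acts through the lymphotoxin beta receptor, differed by -0.10, and by 0.00 in the mean of its probe sets. IL32, a cytokine gene that NF-kB induces in epithelium, averaged 1111 ± 72.2 with vehicle and 1131 ± 113 with CompE, and differed by 0.02 (95% interval -0.21 to 0.26).

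None of the 4 further target genes passed, with 0 past the limma threshold and also 0 under an unadjusted p of 0.05. ICAM1, an adhesion molecule for leukocytes, was at 65.3 ± 7.53 in DMSO and 63.0 ± 6.79 in CompE. TNFAIP2, a TNF-induced gene, differed by -0.04 (0.06 for the mean of its probe sets) and CD83, a surface molecule of activated cells, by -0.02. SOD2, the mitochondrial superoxide dismutase, differed by 0.10, as read from a single probe set, because its others also name a second gene. The intervals of all 4 lay within 1.5-fold.

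Outside the members, 81 more genes of the pathway were listed in the same way, of which 74 had a probe set and 60 were tested. Of these, 8 fell, 1 rose and 51 did not pass, so that 15% passed beside the 7.14% of all genes. Their median log2 difference was -0.07. Among NF-kB target genes 5 of 21 fell (23.8%, beside 2.57% of all genes), among receptors 2 of 13, and among adaptors, kinases and ligases 1 of 26. No test compares these shares with the background, and the list was written with earlier results of these data known.

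Target genes that fell were IER3, an early survival gene, from 1297 ± 68.0 to 745 ± 81.3 (1.75-fold, adjusted p = 0.0106), and LCN2, the antimicrobial lipocalin, from 438 ± 63.3 to 262 ± 13.8 (1.66-fold, adjusted p = 0.0215). IL18, an epithelial cytokine gene, went from 234, 259 and 253 on the DMSO arrays to 157, 152 and 172 on the CompE arrays (1.55-fold, adjusted p = 0.00849). CD82, a tetraspanin gene, fell 1.52-fold and GADD45B, a stress-induced survival gene, 1.5-fold. All 5 had groups that did not overlap, with 13.0% of all genes lower in that way. Since these genes were named for passing on the same arrays, the lack of overlap adds no support.

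Further receptors that fell were TNFRSF11A, which encodes RANK, from 955 ± 22.2 to 708 ± 23.8 (adjusted p = 0.0104), and TNFRSF12A, the receptor for TWEAK, from 365 ± 19.8 to 276 ± 13.0 (adjusted p = 0.0251). MALT1, the protease of the CARD-BCL10 complex, fell 1.26-fold (adjusted p = 0.033). TRAF5, an adaptor of TNF receptor family members, was the gene that rose, 1.22-fold (adjusted p = 0.0364). It passed under 8 of the 13 alternatives that kept all arrays. TRAF5 did not pass with arrays centred on the median or on hybridisation controls. Nor did it pass with no filter, with probe sets in place of genes or with the replicate block. With each array left out in turn, TRAF5 (adjusted p 0.0770 to 0.117), TNFRSF12A (0.0534 to 0.0910) and MALT1 (0.0570 to 0.107) passed in 0 of 6 limma fits. LCN2 passed in 1, CD82 in 2, GADD45B in 3, and TNFRSF11A, IER3 and IL18 in 5 each.

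**Figure D4:**
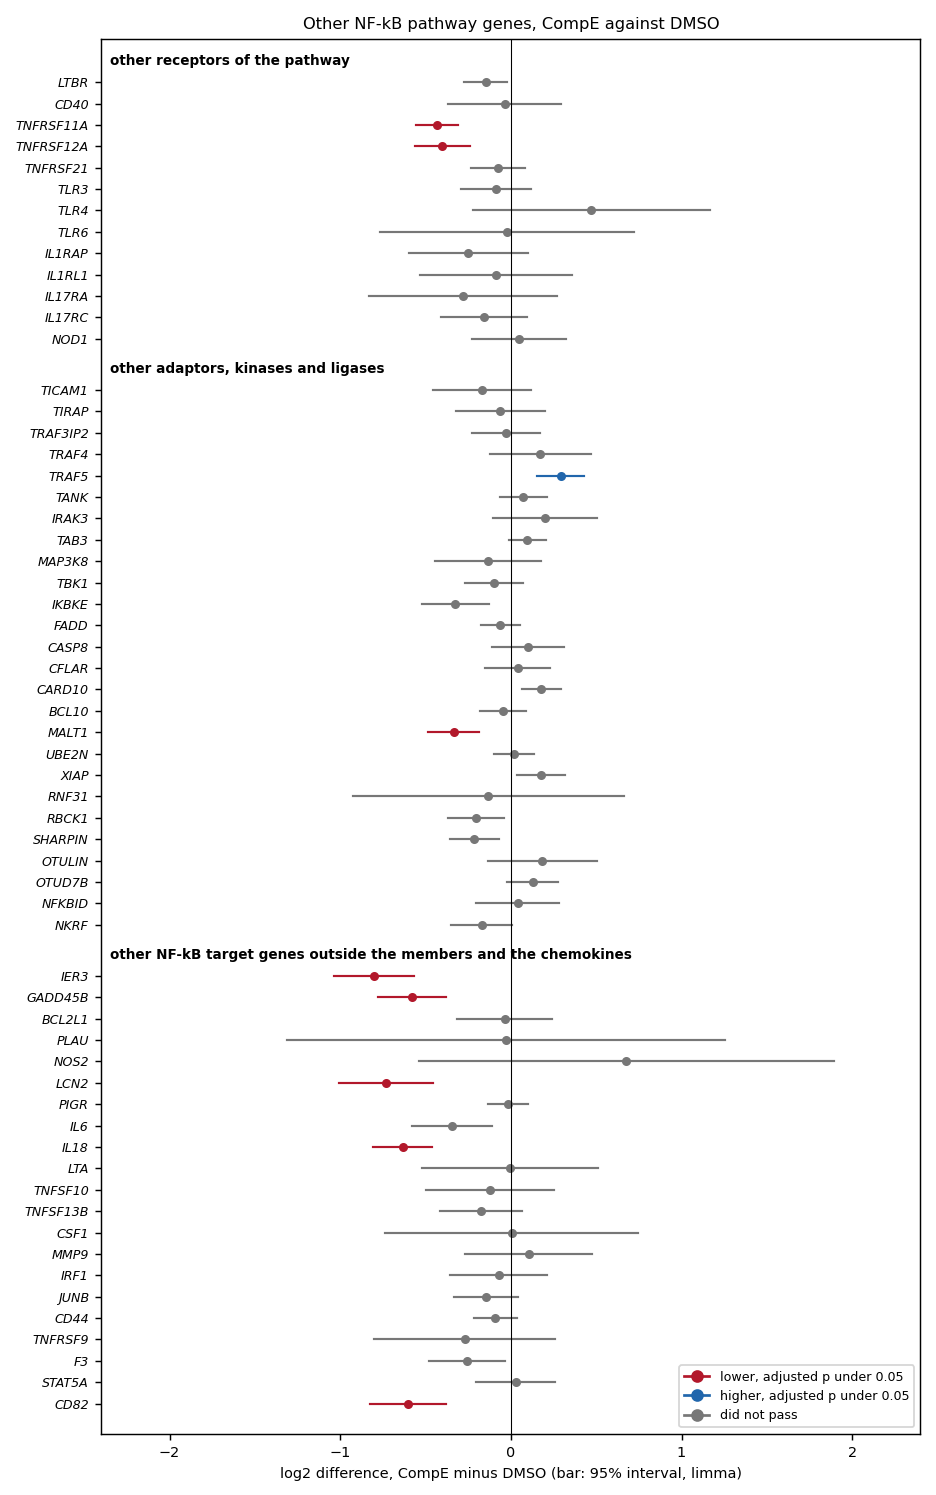
Log2 difference (CompE minus DMSO) with 95% intervals from limma for the 60 other pathway genes tested, by role. The 8 genes that fell are red, 5 of them in the group of target genes, and TRAF5 (0.29) is the gene that rose.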

How the data were processed

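The authors deposited 1 linear intensity for each probe set and array. Per the series design text, differences in intensity between arrays had been removed with dChip, after biotin labelling from the 3' end per the labels' protocols. For the version and probe model of dChip, nothing was found (not given in the sources used here). A selection of 10896 probes that the authors state is not applied in the deposited table of 54674 probe sets and served as an alternative only.

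Intensities under 1 were set to 1 and log2 was taken. The 62 control probe sets and those in the lowest 40% of mean log2 value (under 4.61) were left out. Probe sets were named through GEO's annotation of 2016 (41091 with 1 gene, 1800 with several, 11721 unnamed here), updated by Entrez identifier for 41037. CompE was compared with DMSO on all 6 arrays, without covariates, by limma 3.58.1 in R 4.3.3 (lmFit, eBayes, two-sided), with Benjamini-Hochberg adjustment over 14308 genes. "Rose" and "fell" mean an adjusted p under 0.05. Folds are 2 to the power of the log2 difference and can understate changes of dim genes. The Bacillus level is the 95th percentile of 27 control probe sets. The number of arrays limits precision (median SE over members 0.09). The fit was tested on simulated data.

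The members, lists and tests were chosen with earlier results of these data known. Values on every array are given, by rule, for members that passed, the 6 next by p, and NFKB1, RELA, NFKBIA, TNFAIP3 and IKBKB, and for a few others chosen after their values were seen. Other pathway genes are named where they passed. Alternatives concerned the filter, normalization, floor, offset, probe set choice, variance model, replicate block and leaving out each array.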

Additional observations from a re-analysis of the deposited data

How the results depend on the processing

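No value of a member that passed in either fit changed sign under any of the 19 alternatives, while 31 of 694 values of members (20 members) changed sign without passing. Of the 38 members tested, 27 passed under no setting, NFKB1, RELA, TNFAIP3 and IL1B among them. Over all genes 1021 passed, against 363 with no filter, 1751 with the lowest 60% left out, 1555 above the Bacillus level, 1892 centred on hybridisation controls, 2254 with an intensity trend and robust prior and 2920 with the 10896 least variable probe sets. That last choice selects on the spread used in the test, so its p-values are too small. For members the count of 2 became 0 in limma with no filter, 5 with the lowest 60% left out, 4 above the Bacillus level, 7 centred on hybridisation controls, 4 with the offset of 32, 6 with the least variable probe sets and 6 with the trend. In that order, the shares of members tested were 0%, 14.3%, 11.1%, 18.4%, 10.5%, 40% (of 15 tested) and 15.8%. The shares of all genes were 1.84%, 16.1%, 13.3%, 13.2%, 9.10%, 42.6% and 15.8%, so the member counts moved much as the background did. Of the other pathway genes 9 passed (15%), against 3 with no filter (4.05%) and 14 with the least variable probe sets (58.3% of 24 tested). Leaving out 1 array gave 252 (without CompE replicate 1) to 519 (without CompE replicate 3) genes, 0 to 1 members and 2 to 5 other pathway genes. The adjusted p with no filter was 0.0508 for both IRAK2 (-0.48) and TNFRSF1A (-0.42), and the mean of probe sets gave -0.33 for IRAK2. Left-out arrays gave log2 differences of -0.53 to -0.43 for IRAK2 and -0.45 to -0.37 for TNFRSF1A.

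Replicate numbers are shared between the groups, but same-numbered arrays did not deviate together (r = 0.02, -0.10 and -0.02 over 14308 genes), so that the numbers were not taken to pair the cultures. With the replicate block 102 genes passed, 1 member (IL1A) and 0 other pathway genes, and the values were -0.48 for IRAK2 (adjusted p = 0.0854) and -0.42 for TNFRSF1A (adjusted p = 0.102).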

Other observations

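TNFRSF1A and TNFRSF1B belong to the TNF receptor superfamily, and after their values were seen all genes of the array with a TNFRSF symbol were listed. Of 16 such genes tested, 3 fell (TNFRSF1A, TNFRSF11A and TNFRSF12A) and 0 rose in the limma fit, with a median log2 difference of -0.12. Over all genes tested 2.57% fell and 4.56% rose, with a median of 0.02. TNFRSF12A passed in 0 of 6 fits with 1 array left out (adjusted p 0.0534 to 0.0910), and TNFRSF1A in 2 and TNFRSF11A in 5. The death receptor genes for TRAIL, TNFRSF10A and TNFRSF10B, were at 383 and 1094 in DMSO and at 302 and 962 in CompE and did not pass (adjusted p = 0.164 and 0.124). TNFRSF11B, the gene of the RANK ligand decoy osteoprotegerin, averaged 124 with vehicle and 166 with CompE (adjusted p = 0.153). TNFRSF25, the gene of another death receptor, was at 95.6 and 122 (adjusted p = 0.168). TNFRSF14 and TNFRSF21 differed by 0.03 and -0.07. Having been picked with these values in view, the set supports nothing by itself.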
